A study of Mus musculus with 6 samples.

Results

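The genes of collagen crosslinking and folding were examined in expanded mouse chondrocytes with and without a mutant histone. They are 9 genes named by symbol: the lysyl oxidases Lox, Loxl1, Loxl2, Loxl3 and Loxl4, the lysyl hydroxylases Plod1, Plod2 and Plod3, and the collagen chaperone gene Serpinh1. All 9 were rows of the table of 35976 genes, and all 9 passed the filter on low counts. Polyadenylated RNA came from embryonic chondrocytes of hind limb articular cartilage (embryonic day 18.5, strain C57BL/6 x 129S4/SvJae). Cells of both groups were grown on plastic for 16 population doublings in medium with 10% serum and 50 µg/ml ascorbate-2-phosphate, and both received doxycycline at 2 µg/ml to switch on an H3.3 transgene. In the H3K9M group (replicates 1, 3 and 5) the transgene encoded methionine in place of lysine 9 and H3K9 methylation was suppressed, per the labels. In the H3WT group (replicates 1, 2 and 4) it encoded wild-type H3.3. The sources used here do not say whether the 3 libraries of a group came from separate embryos or cultures, so the p-values measure the spread between these libraries.

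A collagen chain passes through these enzymes in order. In the endoplasmic reticulum the PLOD enzymes hydroxylate lysines, using ascorbate and iron, and the hydroxylysines set the kind of crosslink that can form later and carry sugars. HSP47, the product of Serpinh1, binds the folded procollagen triple helix and accompanies it toward the Golgi. Outside the cell the LOX enzymes, which need copper, oxidise lysines and hydroxylysines to aldehydes that condense into the crosslinks of collagen and elastin. In cartilage these crosslinks tie the type II, IX and XI collagens into a fibril network.

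Total counts ran from 15113675 to 19606082 per library. Values are normalised read counts (CPM, scaled by TMM), and are means ± SD over 3 libraries unless a library is named. The first principal component of all genes (35.5% of the variance) set H3K9M replicate 3 and H3WT replicate 2 on its positive side, far from H3WT replicates 1 and 4 on its negative side, and H3K9M replicates 1 and 5 lay between these pairs. The second component (28.8%) separated the groups. H3K9M replicates 1, 3 and 5 stood at 38.4, 39.8 and 19.0, and H3WT replicates 1, 2 and 4 at -11.4, -71.5 and -14.4. Each library was left out in turn, and H3K9M replicate 3 and H3WT replicate 2 were also left out together, a choice made after seeing the data. The cells carried all 13 measured chondrocyte markers, whose summed level was 7278 to 11594 CPM in H3K9M and 6961 to 20277 CPM in H3WT, the highest being H3WT replicate 2 (marker sums are CPM of the library total, without TMM). The sum was mostly Col2a1, and gene by gene all 13 had a negative log2 fold change in H3K9M (median -1.03). Of the 13, 0 passed an adjusted p of 0.05 (edgeR), against 0% of all genes. An unadjusted p under 0.05 was found for 2 of the 13 (edgeR), against 5.77% of all genes in that direction. Skeletal muscle markers summed to 174, 271 and 31.4 CPM in H3K9M replicates 1, 3 and 5 and to 14.5 to 33.0 CPM in H3WT, with 1 of 10 (Myh8) at 3 counts or fewer in every library. Endothelial markers (6.26 to 23.3 CPM) and macrophage and blood markers (5.57 to 24.5 CPM) were low in every library, and 5 of 8 and 5 of 10 of them had at most 3 counts in every library. In bulk RNA, fewer cells of a type and less RNA per cell cannot be told apart.

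Per length of transcript, Lox was the most abundant of the 9 genes and Plod1 the least. On this scale (CPM per kb of the longest annotated transcript, mean ± SD over 6 libraries) Lox stood at 1234 ± 480 and Serpinh1 at 842 ± 227, and Lox was above Serpinh1 in 6 of 6 libraries. Loxl1 followed at 148 ± 39.4, then Plod3 at 113 ± 28.0. Loxl4 (89.1 ± 41.8), Loxl3 (85.7 ± 35.3), Loxl2 (70.2 ± 15.4) and Plod2 (69.9 ± 16.9) did not differ beyond their spread, since each was above the next in 3 of 6 libraries. Plod3 was above Loxl4 in 4 of 6 and Loxl1 above Plod3 in 5 of 6. Plod1 was lowest at 46.7 ± 12.1, below Plod2 in 6 of 6 libraries.

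None of the 9 genes passed an adjusted p of 0.05 between H3K9M and H3WT (0 of 9, edgeR quasi-likelihood test, Benjamini-Hochberg over 13761 genes). The background was 0% of all genes tested. DESeq2 and limma-voom also called 0 of the 9. At an unadjusted p under 0.05 there was 1 of 9, Plod3, against 12.2% of all genes, and with DESeq2 and limma-voom it was likewise 1 gene, Plod3. Without H3WT replicate 1 the count was 0 of 9. The values of the groups did not overlap for 1 of 9, again Plod3, against 19.4% of all genes. In the direction of Plod3, lower in H3K9M, the background was 5.77% for the unadjusted p and 8.68% for groups that did not overlap. DESeq2 passed 2.84% of all genes at its adjusted threshold. The median log2 fold change of the 9 was -0.23, with 6 lower and 3 higher in H3K9M, beside a median of -0.003 over all genes. By library, the median deviation of the 9 from their own mean log2 CPM was 0.06, -0.50 and 0.11 in H3K9M replicates 1, 3 and 5. In H3WT replicates 1, 2 and 4 it was 0.18, 0.02 and 0.15. H3K9M replicate 3 had 1 of 9 genes above its own mean, and H3K9M replicates 1 and 5 had 6 each.

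**Figure D1:**
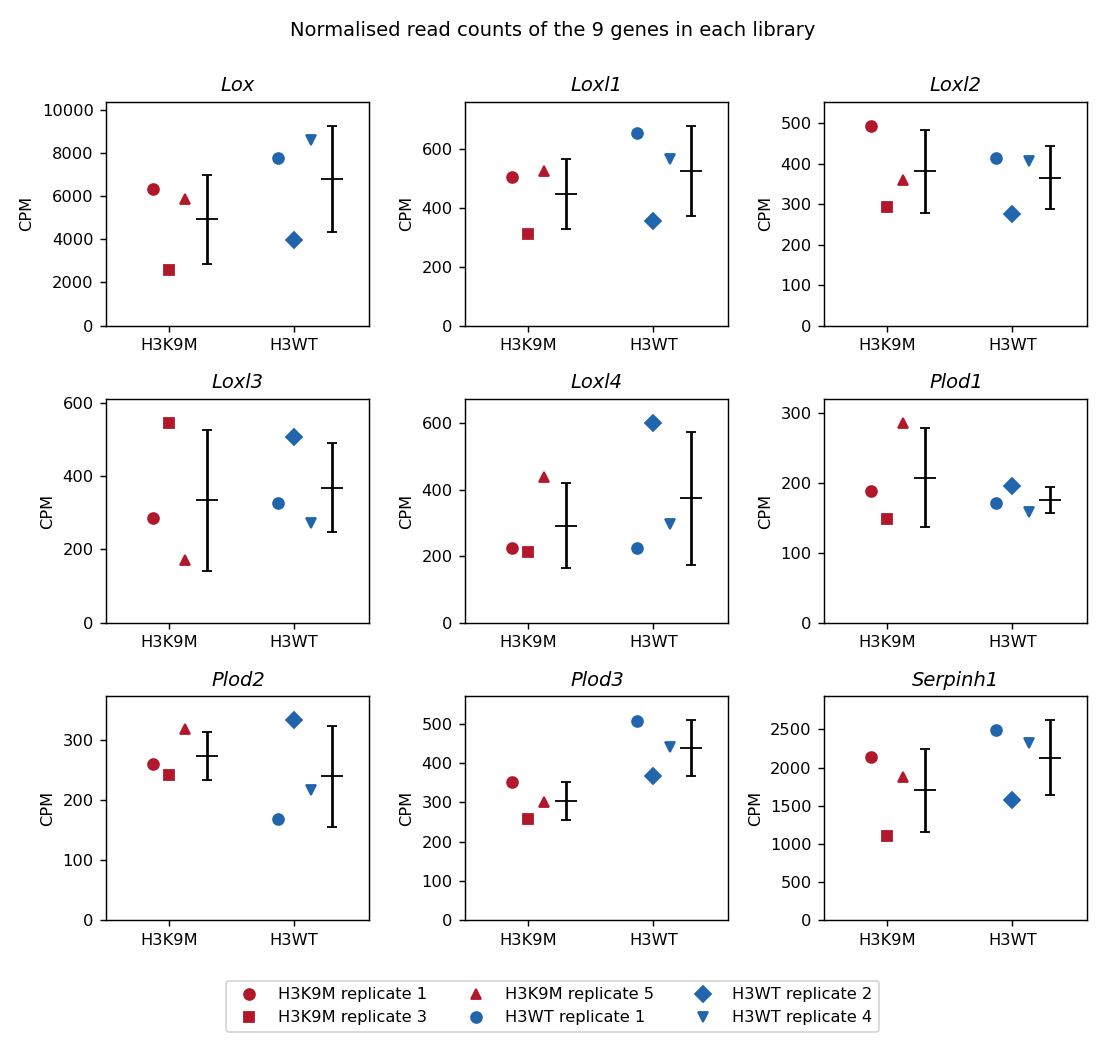
Normalised read counts (CPM, y axis) of the 9 genes in each of the 6 libraries, by group (x axis). Each symbol is a library, and the black bar is the group mean with its SD over 3 libraries. In the Plod3 panel the 3 H3K9M libraries, at 257 to 352 CPM, lie below the 3 H3WT libraries, at 366 to 507 CPM, and in the other 8 panels the groups overlap.

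Among the oxidases, Lox encodes the founding member of the family, which is secreted as a proenzyme and cut by BMP1. It had 6332, 2553 and 5854 CPM in H3K9M replicates 1, 3 and 5 and 7776, 3982 and 8599 CPM in H3WT replicates 1, 2 and 4. The lowest libraries were H3K9M replicate 3 and H3WT replicate 2, and the groups overlapped because H3WT replicate 2 lay below H3K9M replicates 1 and 5. The group means were 4913 ± 2058 and 6786 ± 2463 CPM (SD, n = 3 each). On the log2 scale the fold change was -0.47 (SE 0.40, 95% interval -1.41 to 0.48; adjusted p 0.688, edgeR). It was -0.73 without H3WT replicate 2 and -0.14 without H3K9M replicate 3. Without both of these libraries, which left 2 libraries a group, it was -0.41 (adjusted p 0.182, SE 0.15).

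Loxl1, whose product is best known for elastic fibre upkeep, also had its lowest levels in these libraries. It had 505, 311 and 527 CPM in H3K9M and 656, 357 and 565 CPM in H3WT, listed by replicate as for Lox. H3K9M replicate 3 and H3WT replicate 2 were the lowest of their groups, as for Lox, and the groups overlapped. The log2 fold change was -0.23 (SE 0.27, 95% interval -0.87 to 0.41; adjusted p 0.788, edgeR). Without H3K9M replicate 3 it was -0.02 and without H3WT replicate 2 it was -0.44.

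Loxl2, an oxidase with scavenger receptor domains that acts on type IV and fibrillar collagens, had 493, 291 and 359 CPM in H3K9M and 413, 275 and 407 CPM in H3WT. No group was higher as a whole, since the highest and the second lowest library were both H3K9M. The log2 fold change was 0.06 (SE 0.23, 95% interval -0.47 to 0.60; adjusted p 0.944, edgeR), and its sign turned without H3K9M replicate 1 (-0.17) or H3WT replicate 2 (-0.10). A stretch of the Loxl2 transcript is 90% or more identical, along 200 bases or longer, to transcripts of 33 other annotated genes, so its count is uncertain.

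Loxl3 and Loxl4, the other oxidases with scavenger receptor domains, also varied widely, with a highest library 3.18 and 2.82 times the lowest in CPM, against 3.37 times for Lox. Loxl3 had 286, 544 and 171 CPM in H3K9M and 327, 506 and 273 CPM in H3WT. The libraries that were lowest for Lox, H3K9M replicate 3 and H3WT replicate 2, were the highest for Loxl3. Its log2 fold change was -0.14 (SE 0.44, 95% interval -1.20 to 0.91; adjusted p 0.931, edgeR), and it was 0.18 without H3K9M replicate 5 and 0.16 without H3WT replicate 2. Loxl3 shares exon bases with Htra2 on the opposite strand, whose count was 9.01% to 37.4% of the Loxl3 count, the highest in H3K9M replicate 5, so the Loxl3 count is uncertain too. Loxl4 had 224, 213 and 440 CPM in H3K9M and 226, 600.4 and 296 CPM in H3WT. H3WT replicate 2, the library with the most chondrocyte marker RNA, was the highest and the groups overlapped. The log2 fold change of Loxl4 was -0.35 (SE 0.44, 95% interval -1.42 to 0.71; adjusted p 0.804, edgeR), and it was 0.18 without H3WT replicate 2.

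Plod3 encodes the lysyl hydroxylase that also carries galactosyl- and glucosyltransferase activity, which the other 2 PLOD enzymes are not known for. The gene lies on the plus strand at chr5:136987019-136996646 (GRCm38.p6). It had 352, 257 and 301 CPM in H3K9M replicates 1, 3 and 5 and 507, 366 and 442 CPM in H3WT replicates 1, 2 and 4. Every H3K9M library was below every H3WT library, and the gap between the nearest, H3K9M replicate 1 and H3WT replicate 2, was small. The means were 303 ± 47.8 and 439 ± 70.4 CPM (SD, n = 3 each), a ratio of 0.691 (95% interval 0.527 to 0.907). On the log2 scale the fold change was -0.53 (SE 0.17, unadjusted p 0.0137, adjusted p 0.290, edgeR), so the difference did not pass the correction for multiple testing. It kept its sign without each library in turn, at -0.65 to -0.42, but without H3WT replicate 1 its unadjusted p was 0.0579 (log2 fold change -0.42, adjusted p 0.586, edgeR). Over all alternatives run its adjusted p was 0.098 to 0.586, the lowest without both H3K9M replicate 3 and H3WT replicate 2.

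Annotated neighbours share bases with Plod3. Mir702 lies on the same strand and shares exon bases with Plod3, and its count was 10.8% to 13.2% of the Plod3 count in each library. Mir702 had a log2 fold change of -0.62 (adjusted p 0.324, SE 0.22, edgeR), close to that of Plod3. This is not a separate change of another gene, since reads of Mir702 and Plod3 cannot be told apart on shared bases of the same strand. Znhit1, on the opposite strand with shared exon bases, averaged 34.7 ± 5.78 CPM in H3K9M against 30.8 ± 3.78 CPM in H3WT, with a log2 fold change of 0.17 (adjusted p 0.756, SE 0.18, edgeR), of the opposite sign. The Znhit1 count was 10.5%, 11.0% and 12.9% of the Plod3 count in H3K9M replicates 1, 3 and 5. In H3WT replicates 1, 2 and 4 it was 6.88%, 8.23% and 6.21%. The strand setting of the counting is not given in the sources used here, so the Plod3 count is uncertain too. The tendon and osteoblast marker sums were lower on average in H3K9M, as Plod3 was. Tendon markers summed to 1003, 721 and 825 CPM in H3K9M and 1718, 904 and 1510 CPM in H3WT, mostly from Fmod, and the groups overlapped. Of the 5 tested tendon genes 3 were higher and 2 lower in H3K9M, with a median log2 fold change of 0.22. Osteoblast markers summed to 74.6, 52.6 and 70.9 CPM in H3K9M and 114.6, 54.2 and 94.0 CPM in H3WT, with 4 of 6 tested genes lower and a median of -0.65. Skeletal muscle sums were higher in H3K9M replicates 1 and 3 than in any H3WT library, and inside the H3WT range in H3K9M replicate 5. In H3WT replicates 1 and 4 the sum was mostly Acta1 (26.2 and 24.0 CPM). All 7 tested muscle genes had a positive log2 fold change (median 2.91), and all 13 chondrocyte markers a negative one. For 5 of the 7 muscle genes every H3K9M library lay above every H3WT library. Groups did not overlap for 19.4% of all genes in either direction, and for 8.68% with H3WT above. The unadjusted p was under 0.05 for 5 of the 7 (edgeR), against 6.42% of all genes in that direction. Genes such as Myod1 (0, 20 and 0 counts in H3WT) and Myh3 (12, 0 and 0) passed the filter on low counts through the H3K9M libraries. That favours a positive direction, so these muscle counts are a description and carry no test. The part of these cell types in the Plod3 difference was not tested.

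Plod1 and Plod2 were higher on average in H3K9M, with overlapping groups. Plod1, the hydroxylase of helical lysines whose loss causes kyphoscoliotic Ehlers-Danlos syndrome, had 189, 148 and 285 CPM in H3K9M and 171, 196 and 159 CPM in H3WT. H3K9M held both the highest and the lowest library. The log2 fold change was 0.24 (SE 0.23, 95% interval -0.30 to 0.78; adjusted p 0.723, edgeR), and without H3K9M replicate 5 it was -0.05. Plod2, the hydroxylase of telopeptide lysines and the one most linked to fibrosis, had 259, 242 and 318 CPM in H3K9M and 168, 333 and 217 CPM in H3WT. Its highest library was H3WT replicate 2, which lay above all of H3K9M, while the other H3WT libraries lay below all of H3K9M. The log2 fold change was 0.19 (SE 0.25, 95% interval -0.38 to 0.76; adjusted p 0.812, edgeR). Without H3WT replicate 2 it was 0.51 (SE 0.18, unadjusted p 0.0207, adjusted p 0.204, edgeR), and without H3WT replicate 1 it was -0.01. Without H3WT replicate 2, 2 of the 9 genes (Plod2 and Plod3) had an unadjusted p under 0.05, against 17.1% of all genes, and 0 of 9 passed the adjusted threshold, against 0.639%. In the fit without both H3K9M replicate 3 and H3WT replicate 2, 4 of the 9 genes had an unadjusted p under 0.05 (Lox, Plod1, Plod2 and Plod3), against 18.4% of all genes, and 0 of 9 passed the adjusted threshold, against 2.19%.

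Serpinh1 encodes HSP47, a chaperone of the endoplasmic reticulum with procollagen as its client. It had 2133, 1096 and 1872 CPM in H3K9M replicates 1, 3 and 5 and 2489, 1569 and 2325 CPM in H3WT replicates 1, 2 and 4. The lowest libraries of the groups were again H3K9M replicate 3 and H3WT replicate 2, and the groups overlapped. The means were 1700.3 ± 539 and 2127 ± 491 CPM (SD, n = 3 each), and the log2 fold change was -0.32 (SE 0.28, 95% interval -0.96 to 0.32; adjusted p 0.682, edgeR). It was -0.08 without H3K9M replicate 3 and -0.49 without H3WT replicate 2. H3K9M replicate 3 was the lowest of the 6 libraries for 6 of the 9 genes (Lox, Loxl1, Loxl4, Plod1, Plod3 and Serpinh1) and the highest for Loxl3.

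**Figure D2:**
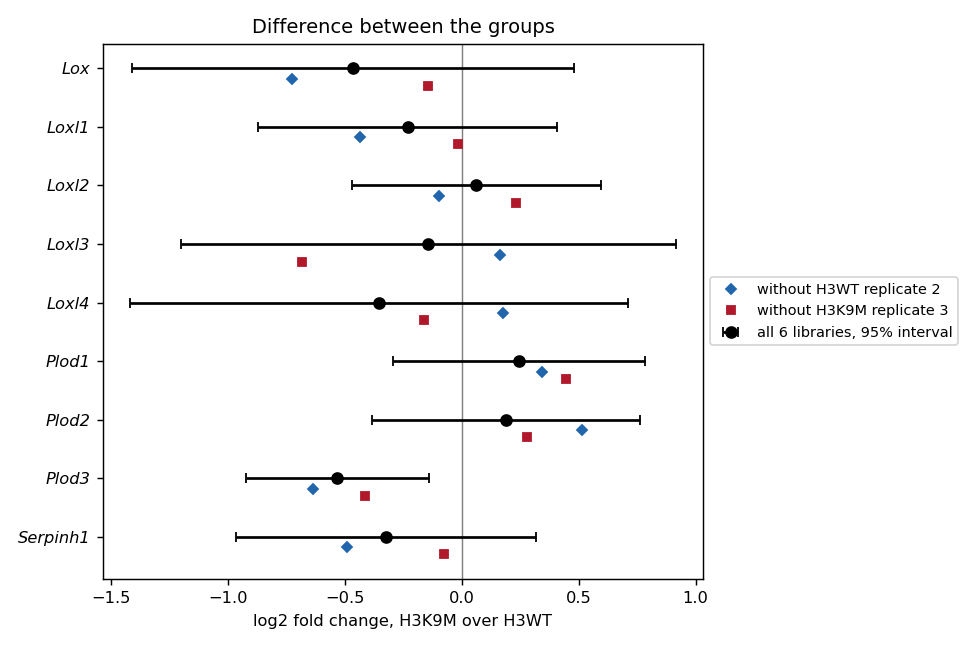
Log2 fold change of H3K9M over H3WT (x axis) for each gene (y axis). Black points are the fit to all 6 libraries with its 95% interval, blue diamonds the fit without H3WT replicate 2 and red squares the fit without H3K9M replicate 3. The interval of Plod3 (-0.92 to -0.14) lies below 0 before correction for multiple testing, and the other 8 intervals include 0.

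Promoter sequences are shown for Plod3, the gene whose groups did not overlap, and for its paralogue Plod1, which had the opposite sign. Serpinh1 is shown too, since its range was narrow against the summed fibrillar collagens, though not against every single collagen, as described further on. Each run covers 250 bases before to 50 bases from the start site, 5′ to 3′ on the strand of the gene (RefSeq, GRCm38.p6), and 4 of the 9 genes had a sequence that could be printed. The letters ACGTG and GCGTG, the core of the element bound by hypoxia-inducible factors, and GAANNTTC and TTCNNGAA, pairs of heat shock element units, were searched on both strands and are in capitals where found.
Plod3, chr5:136986769-136987068, plus strand: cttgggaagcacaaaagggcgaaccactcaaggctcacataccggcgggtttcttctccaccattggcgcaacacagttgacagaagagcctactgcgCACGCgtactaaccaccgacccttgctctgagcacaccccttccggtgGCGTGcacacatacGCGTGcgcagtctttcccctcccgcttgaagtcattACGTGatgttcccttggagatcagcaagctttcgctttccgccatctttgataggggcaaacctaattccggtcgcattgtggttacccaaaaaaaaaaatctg
Plod1, chr4:147936727-147937026, minus strand: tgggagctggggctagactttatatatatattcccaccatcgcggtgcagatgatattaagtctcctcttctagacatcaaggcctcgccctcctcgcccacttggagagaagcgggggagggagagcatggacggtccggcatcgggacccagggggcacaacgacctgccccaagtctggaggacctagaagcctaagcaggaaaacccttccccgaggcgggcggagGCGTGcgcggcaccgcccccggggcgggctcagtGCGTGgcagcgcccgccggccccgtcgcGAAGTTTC
Serpinh1, chr7:99353190-99353489, minus strand: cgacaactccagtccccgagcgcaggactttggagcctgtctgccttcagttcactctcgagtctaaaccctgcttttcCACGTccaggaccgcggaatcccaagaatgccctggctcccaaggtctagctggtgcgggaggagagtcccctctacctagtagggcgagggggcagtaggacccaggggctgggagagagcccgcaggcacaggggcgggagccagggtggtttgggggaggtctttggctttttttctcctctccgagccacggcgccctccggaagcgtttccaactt
The Plod3 window held ACGTG 1 time, at -54 to -50, and GCGTG 3 times, at -152 to -148, -104 to -100 and -90 to -86 from the start site. The Plod1 window held GCGTG 2 times, at -20 to -16 and 15 to 19, and GAANNTTC 1 time, at 43 to 50. The Serpinh1 window held ACGTG 1 time, at -171 to -167. None of these matches overlapped another. Over 32851 promoter windows of this length, 19.6% held ACGTG, 32.4% GCGTG, 7.86% GAANNTTC and 8.52% TTCNNGAA, counting windows with at least 1 match. ACGTG or GCGTG was in 43.8% of windows, so a single match of either is common. Windows with as many matches as Plod3 were not counted, and no binding was measured here.

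The make-up of each family was then compared as each gene's share of the family's counts per kb, a quantity that needs no scaling of libraries. Lox held most of the LOX family in every library, at 78.1%, 61.4% and 76.2% in H3K9M and 79.7%, 65.4% and 82.2% in H3WT. The 2 lowest Lox shares were those of H3K9M replicate 3, where Loxl3 held 15.1%, and H3WT replicate 2, where Loxl4 held 12.5% and Loxl3 9.61%. In the PLOD family, Plod3 held 47.9%, 43.4% and 37.0% in H3K9M and 63.8%, 44.6% and 57.9% in H3WT. Plod3 was the leading PLOD transcript in every library on this scale, narrowly in H3K9M replicate 5 (37.0% against 34.9% for Plod2). By raw counts Plod2 led in that library, at 6227 against 5901 for Plod3. The mean share of Plod3 was 42.7% ± 5.47 in H3K9M and 55.4% ± 9.83 in H3WT (SD, n = 3 each; two-sided exact permutation p 0.2), and the groups overlapped. Plod2 held 31.6%, 36.6% and 34.9% in H3K9M and 18.9%, 36.3% and 25.5% in H3WT, again with overlap (exact permutation p 0.3).

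The shares of 2 of the 8 genes did not overlap between the groups, against 19.4% of single genes on the CPM scale. No background was computed for shares, so 2 of 8 is not read as unusual. A share also rises where other genes of the family fall, and in CPM both genes, Plod1 and Loxl2, overlapped between the groups. Plod1 held 20.5%, 20.02% and 28.1% of the PLOD family in H3K9M and 17.2%, 19.1% and 16.6% in H3WT. Loxl2 held 5.42%, 6.25% and 4.16% of the LOX family in H3K9M and 3.78%, 4.03% and 3.47% in H3WT. Both were higher in H3K9M, each with an exact permutation p of 0.1, the smallest that 3 libraries against 3 can give, so no share could pass 0.05. The other LOX genes overlapped (exact permutation p 0.2 to 0.9 over Lox, Loxl1, Loxl3 and Loxl4).

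**Figure D3:**
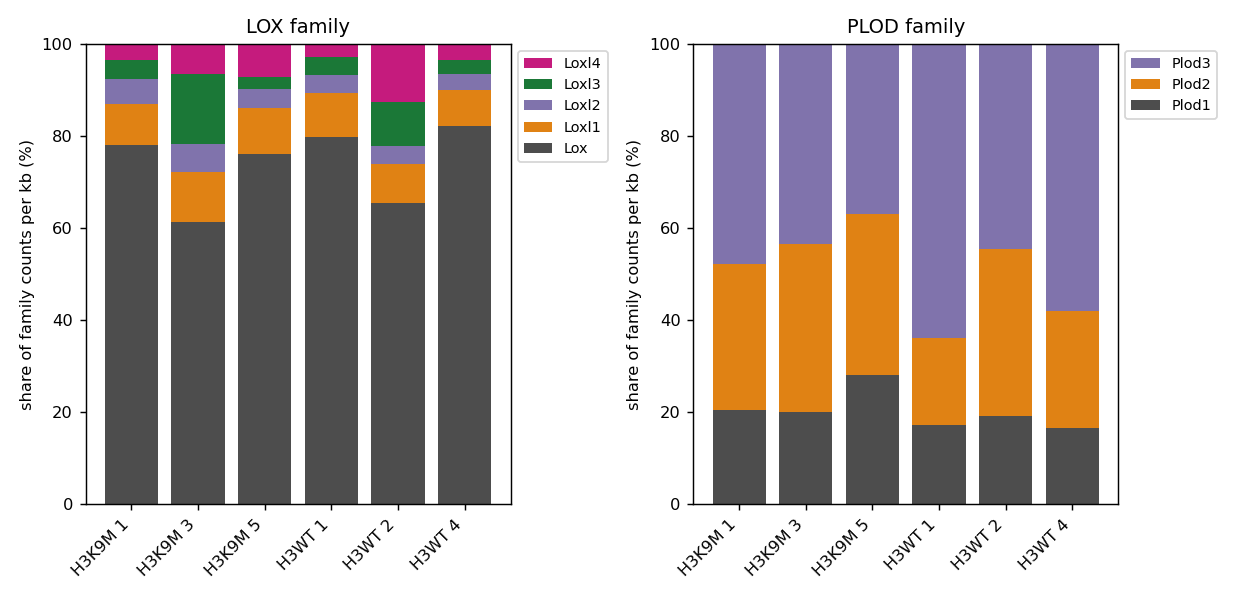
Share of each gene in the counts per kb of its family (y axis, percent) in each library (x axis), for the 5 LOX genes and the 3 PLOD genes. Each bar is 1 library and sums to 100%. The Lox part is smallest in H3K9M replicate 3 (61.4%) and H3WT replicate 2 (65.4%), and the Plod3 part is largest in H3WT replicates 1 (63.8%) and 4 (57.9%).

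Each gene was also set against its substrate, as counts per 1000 counts of 11 fibrillar collagen genes in the same library. The collagens themselves took 4.39%, 2.27% and 4.05% of all counts in H3K9M and 4.76%, 3.13% and 4.19% in H3WT, so the libraries low in Lox and Serpinh1 were also lowest in fibrillar collagen. Serpinh1 had 48.0, 51.6 and 46.2 counts per 1000 collagen counts in H3K9M and 49.9, 51.7 and 53.0 in H3WT. Its highest library was 1.15 times its lowest on this scale, against 2.27 times in CPM. Of the 13750 tested genes outside the collagen list, Serpinh1 had the narrowest range, and the median gene had a highest library 2.95 times its lowest. This ranking was chosen after the Serpinh1 values were seen and is given with no test. Genes with many counts vary less from counting alone, and Serpinh1 is among them.

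The range of Serpinh1 was wider against each single collagen than against the sum, and it depended on the collagen. The make-up of the sum differed between libraries, with Col1a1 at 12.1% to 38.0% and Col2a1 at 9.86% to 46.5% of the fibrillar counts. The highest Serpinh1 library was 1.42 times the lowest against Col5a2 and 1.52 times against Col3a1, where the median gene stood at 3.44 and 2.77 times. It was 2.64 times against Col1a1 and Col1a2 together, where the median gene stood at 4.90 times and 2.32% of genes had a range as narrow. Against Col2a1 it was 4.56 times, wider than the median gene at 3.67 times. Over the 11 collagens taken singly, Serpinh1 had a narrower range than the median gene for 6 and a wider one for 5. Single collagens other than Col2a1 were added after the data were seen. Loxl1 was also narrow against the sum, at 11.3 to 14.7 per 1000 (1.29 times), and 14 genes, itself included, had a range as narrow. Lox ran from 120.3 to 196 per 1000 (1.63 times), Plod3 from 7.43 to 12.1 (1.63 times) and Loxl2 from 8.29 to 13.7 (1.66 times).

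The remaining genes had wider ranges against the summed collagens. Loxl3 ran from 4.22 to 25.6 per 1000 (6.07 times), Loxl4 from 4.53 to 19.8 (4.37 times) and Plod2 from 3.38 to 11.4 (3.38 times). Each of these was wider than the median gene at 2.95 times. Plod1 ran from 3.44 to 7.05 (2.05 times), narrower than the median gene, and 12.9% of genes had a range as narrow. Over the 11 collagens taken singly, Plod1 had a narrower range than the median gene for 10, Plod3 for 9 and Serpinh1 for 6. The other members had 3 to 5 such collagens. Against Col2a1 alone, Loxl4 was the narrowest of the 9 at 1.75 times, a range that 51 of 13760 tested genes matched or bettered. Plod2 was next at 2.38 times.

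Between the groups, none of the 9 ratios differed beyond the spread of the libraries. The difference in log2 ratio, H3K9M minus H3WT, was -0.09 for Serpinh1 (exact permutation p 0.2), -0.23 for Lox (0.4), -0.27 for Plod3 (0.4), 0.46 for Plod1 (0.2), 0.50 for Plod2 (0.4) and 0.32 for Loxl2 (0.3), each p from a two-sided exact permutation test. For Loxl1, Loxl3 and Loxl4 the differences were 0.04, 0.01 and -0.05 (exact permutation p 0.9, 1 and 1). For all 9 ratios the groups overlapped, Plod3 included, whose CPM values did not overlap.

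**Figure D4:**
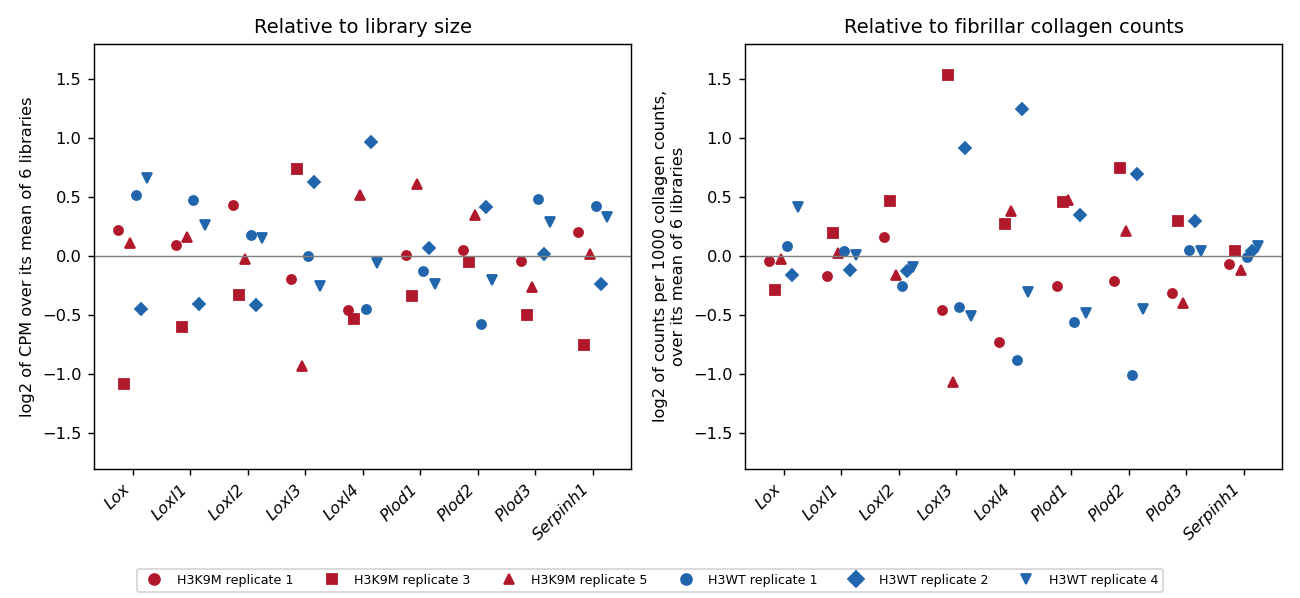
Values of each gene in the 6 libraries, as log2 relative to the gene's own mean (y axis), on the CPM scale (left) and per 1000 fibrillar collagen counts (right). Each symbol is a library. The Serpinh1 points span a ratio of 2.27 on the left and 1.15 on the right, while those of Loxl3 span 3.18 on the left and 6.07 on the right.

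Other genes of collagen maturation were counted from 5 lists, and in none did a gene pass an adjusted p of 0.05 (edgeR). Of the 10 prolyl hydroxylase genes and partners, 0 passed and 1 had an unadjusted p under 0.05 (P3h3, named after its values were seen, log2 fold change -0.46, SE 0.17), against 5.77% of all genes in that direction, and the median log2 fold change was -0.13 (-0.01 without H3K9M replicate 3, -0.08 without H3WT replicate 2, and -0.06 without H3WT replicate 1 or 4). P4ha1 and P4ha2, catalytic subunits of prolyl 4-hydroxylase, had log2 fold changes of 0.15 (SE 0.48) and -0.24 (SE 0.54), and P4hb, the shared beta subunit, had -0.02 (SE 0.22). P4ha1 was 134 CPM in H3K9M replicate 3 and 175 CPM in H3WT replicate 2, against 305 to 453 CPM in the other 4 libraries, the same split as for Lox. The genes of the prolyl 3-hydroxylation complex, P3h1, Crtap and Ppib, had -0.37 (SE 0.17), -0.16 (SE 0.16) and 0.04 (SE 0.11), and P3h1 did not overlap between the groups (126 to 203 CPM in H3K9M, 209 to 225 CPM in H3WT, adjusted p 0.440, edgeR).

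Of 13 genes for other folding, glycosylation and export steps, 0 passed and 0 had an unadjusted p under 0.05, with a median of -0.17 (-0.08 without H3K9M replicate 3 and -0.27 without H3K9M replicate 5). Fkbp10, whose product FKBP65 works with lysyl hydroxylase 2, averaged 565 ± 80.3 CPM in H3K9M against 654 ± 32.0 CPM in H3WT, with a log2 fold change of -0.21 (adjusted p 0.585, SE 0.14, edgeR). Colgalt1, which adds galactose to the hydroxylysines that PLOD enzymes make, had 299.9 ± 34.2 and 323 ± 24.8 CPM, a log2 fold change of -0.11 (adjusted p 0.795, SE 0.13, edgeR).

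Of 10 tested genes for procollagen and oxidase processing, 0 passed and 3 had an unadjusted p under 0.05, all higher in H3K9M, against 6.42% of all genes in that direction. The median of the list was -0.21, and it was 0.05 without H3WT replicate 4, -0.12 without H3WT replicate 2 and -0.14 without H3K9M replicate 3. Fn1, the gene for fibronectin, which binds LOX and BMP1 in the matrix, had 16981, 22113 and 19009 CPM in H3K9M and 14725, 13783 and 14315 CPM in H3WT. The groups did not overlap, and the log2 fold change was 0.44 (adjusted p 0.382, SE 0.18, edgeR). The other 2, named after their values were seen, were Tll1, a BMP1 relative (0.95, SE 0.29, adjusted p 0.277), and Adamts14, a procollagen N-propeptidase (1.10, SE 0.35, adjusted p 0.290, edgeR). Bmp1 itself had a log2 fold change of -0.14 (adjusted p 0.794, SE 0.17, edgeR). Postn, the gene for periostin, ran from 43.9 CPM in H3WT replicate 2 to 853 CPM in H3WT replicate 4, and its log2 fold change of -1.01 (SE 1.10) became 0.44 without H3WT replicate 4.

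On the substrate side, 0 of 11 fibrillar collagen genes passed and 1 had an unadjusted p under 0.05 (Col5a3, named after its values were seen, log2 fold change 1.10, SE 0.36, higher in H3K9M, against 6.42% of all genes), with a list median of -0.25. That median ran from -0.47 without H3K9M replicate 1 to 0.07 without H3K9M replicate 3, and was 0.04 without H3WT replicate 1. Of 10 elastic fibre genes, 0 passed and 2 had an unadjusted p under 0.05, both lower in H3K9M, against 5.77% of all genes in that direction. The median was -0.70, and it was -1.12 when H3WT replicate 2 was left out and -0.37 when H3WT replicate 1 was. Eln, the gene for elastin, had 1.27, 0 and 3.16 CPM in H3K9M and 8.36, 6.43 and 14.9 CPM in H3WT. On the log2 scale the difference was -2.74 (SE 1.13; adjusted p 0.404, edgeR). The groups did not overlap, and the level was low in every library. Mfap2, a microfibril gene named after its values were seen, had 4.35, 2.37 and 2.19 CPM against 28.8, 8.56 and 33.0 CPM (log2 fold change -2.99, SE 0.55, adjusted p 0.170, edgeR). It passed with DESeq2 and without H3WT replicate 2 (log2 fold change -3.38, adjusted p 0.0182, edgeR).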

How the data were processed

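Per the labels' protocols, libraries of polyadenylated RNA were made with a Tecan Universal Plus kit. They gave 1 deposited table of raw read counts per gene symbol, with 1 column for each of 6 libraries. The submitters' processing notes name HISAT2, featureCounts, DESeq2 and the build mm10, with no versions. The annotation and strand setting are not given in the sources used here.

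Groups were taken from the titles. Counts were analysed with edgeR 4.0.16 in R 4.3.3 (filterByExpr defaults, TMM, robust quasi-likelihood fit with genotype as the only term over 6 libraries). P-values were adjusted over 13761 genes by the Benjamini-Hochberg method at a threshold of 0.05. SE is the log2 fold change over the square root of F. Shares and ratios were compared by a two-sided exact permutation test. Lengths were those of the longest GENCODE M21 transcript, found for 96.7% of tested genes, and similar transcripts were found with blastn. Alternatives were DESeq2 1.42.0, limma-voom (limma 3.58.1), DESeq2's size factors, library size alone, 2 other filters, and leaving out each library. The fits were tested on simulated data.

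All 9 genes were named, with 14 fixed genes of the 5 lists and any list gene past the threshold. The members and lists were chosen with earlier results of these data known. Total counts limit precision less than the spread between libraries (common coefficient of variation 0.336).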

Additional observations from a re-analysis of the deposited data

How the results depend on the processing

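Of 117 log2 fold changes recomputed for the 9 genes under 13 alternatives, 109 kept their direction and 0 passed an adjusted p of 0.05, so the count of 0 of 9 held under each alternative. Lox, Loxl1, Plod3 and Serpinh1 kept their sign in every fit. No paired analysis was possible because the groups share a single replicate number. The causes of the differences below were not tested. The count of changed genes over the whole table, 0 here, was 390 with DESeq2, 36 with every gene that had a count, 302 without both H3K9M replicate 3 and H3WT replicate 2, and 0 to 91 over the fits that left out 1 library (2 without H3K9M replicate 3, 91 without H3WT replicate 2). DESeq2 called 1 fibrillar gene (Col5a3) and 1 elastic fibre gene (Mfap2). In the elastic fibre list 0 to 1 genes passed when 1 library was left out, and 3 without both libraries (Mfap2, Fbn2 and Ltbp4).

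Over the fits that left out 1 library, or both H3K9M replicate 3 and H3WT replicate 2, log2 fold changes that changed sign ran from -0.17 to 0.23 for Loxl2, -0.68 to 0.18 for Loxl3, -0.76 to 0.36 for Loxl4, -0.049 to 0.54 for Plod1, -0.0099 to 0.60 for Plod2, -0.20 to 0.53 for P4ha1, -0.49 to 0.17 for P4ha2, -0.15 to 0.20 for P4hb, -0.0033 to 0.069 for Ppib, -0.27 to 0.026 for Bmp1, -1.82 to 0.44 for Postn and -0.50 to 0.48 for Col1a1. P4hb had 0.023 with library size alone, and Col1a1 0.056 with limma-voom. The difference in family share, in percentage points, ran from -9.10 to 1.33 for Lox, -2.18 to 4.10 for Loxl3 and -2.29 to 2.49 for Loxl4 when 1 library was left out, and no sign turned with raw counts or, added after the data were seen, with exon unions as lengths. The log2 ratio to fibrillar collagen ran from -0.051 to 0.13 for Loxl1, -0.76 to 0.54 for Loxl3 and -0.50 to 0.57 for Loxl4. Against Col1a1 and Col1a2 it was -0.24 for Loxl1 and -0.27 for Loxl3, and against Col2a1 it was 0.026 for Lox, 0.21 for Loxl4 and 0.17 for Serpinh1.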

Other observations

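Over the 6 libraries, the genes whose log2 CPM was most like that of Lox, among 9451 genes with a mean of at least 10 CPM, were Adamts2, a procollagen N-propeptidase (Pearson r 0.995), Slit3 (0.994) and Skp2 (0.994). For Serpinh1 they were Tenm3 (0.995), Mpnd (0.994) and Actg1, a cytoplasmic actin (0.993). Those most like Plod2 were Fam45a (0.979), Becn1 (0.974) and Card19 (0.972). With 6 points such values are common: 298 genes had r above 0.9 with Lox, 286 with Serpinh1 and 79 with Plod2. They are a description of these libraries, which share their preparation, and carry no test.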
